A study of Rattus with 12 samples.

Results

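The transcripts of 10 regulators of G-protein signaling (RGS) were followed in complex cultures of rat brain cells exposed to fentanyl. The genes are Rgs2, Rgs4, Rgs5, Rgs7, Rgs8, Rgs9, Rgs10, Rgs14, Rgs16 and Rgs17. They were picked by symbol from the 17337 genes of the count table, in which all 10 are listed. After a filter on low counts 12271 genes remained for testing, 9 of the 10 among them, and Rgs5 had too few counts.

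RGS proteins bind active G alpha subunits and speed up the hydrolysis of their GTP, which shortens the signal of a G-protein coupled receptor. The mu opioid receptor, on which fentanyl acts, signals through the inhibitory Gi, Go and Gz proteins, which are substrates of many RGS proteins. The family is divided by sequence into the small R4 proteins (here Rgs2, Rgs4, Rgs5, Rgs8 and Rgs16), the R7 proteins that work in a complex with Gnb5 (Rgs7 and Rgs9), the R12 proteins (Rgs10 and Rgs14) and the RZ proteins (Rgs17).

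The cultures were made from purchased primary cortical neurons, astrocytes and oligodendrocyte precursor cells (OPCs) of Sprague Dawley rats, and no label names a transgene or a deleted gene. Poly(A) RNA was sequenced from 12 cultures after 4 days, 4 of them untreated (0 μM fentanyl), 4 with a low dose (0.01 μM) and 4 with a high dose (10 μM). Total counts per culture ran from 12059872 to 17023909 (untreated), from 12907388 to 16512387 (low dose) and from 15102785 to 24813893 (high dose). The labels give each culture a letter: A, G, M and P are untreated, B, H, N and Q received the low dose, and the high dose went to C, I, O and R. The study calls the 4 replicates behind its cell type estimates biological, but whether the cultures of a dose came from separate preparations is not given in the sources used here, so p-values measure the spread between these cultures.

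Untreated culture G stood apart from the other 11. All 12 neuron markers of the list were detected in each culture, but their summed level was 256 CPM in G and 3120 to 4830 CPM in the others, where CPM are counts scaled to a library of 1000000 with the TMM factors of edgeR. Microglia, which were not seeded by name, were present by their markers. The summed level of 10 microglia markers was 41.5 to 51.1 CPM in P, Q and R and 358 to 1530 CPM in the other 9 cultures, with Cx3cr1 at 0 in 1 culture. In bulk RNA, fewer cells of a type and less RNA per cell cannot be told apart. Cultures of consecutive letters (ABC, GHI, MNO and PQR) resembled each other in most RGS genes, so values within each letter set stand beside the pooled ones, although nothing says that the letters mark a pairing or a batch.

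For none of the 9 RGS genes tested was a difference between doses called against the spread of the replicate cultures. A gene was called when its adjusted p was below 0.05 and its log2 fold change exceeded 0.5 in either direction (edgeR, quasi-likelihood test). In low dose vs. untreated 0 of 9 were called, beside 0% of all genes. The comparison of high dose with untreated gave 0 of 9, beside 0%, and that of high with low dose 0 of 9, beside 0%. The study itself reported differentially expressed genes in each of these comparisons, with edgeR and factors of unwanted variation at the same thresholds. It does not give its number of factors or its test. An unadjusted p below 0.05 was reached by 0 of 9 RGS genes in each comparison, and by 0.742%, 1.19% and 1.17% of all genes in that order. DESeq2 with the same factor of unwanted variation called 0 of 9 in each. The spread between cultures of 1 dose was wide for most of them, as the plot of levels by culture shows.

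**Figure D1:**
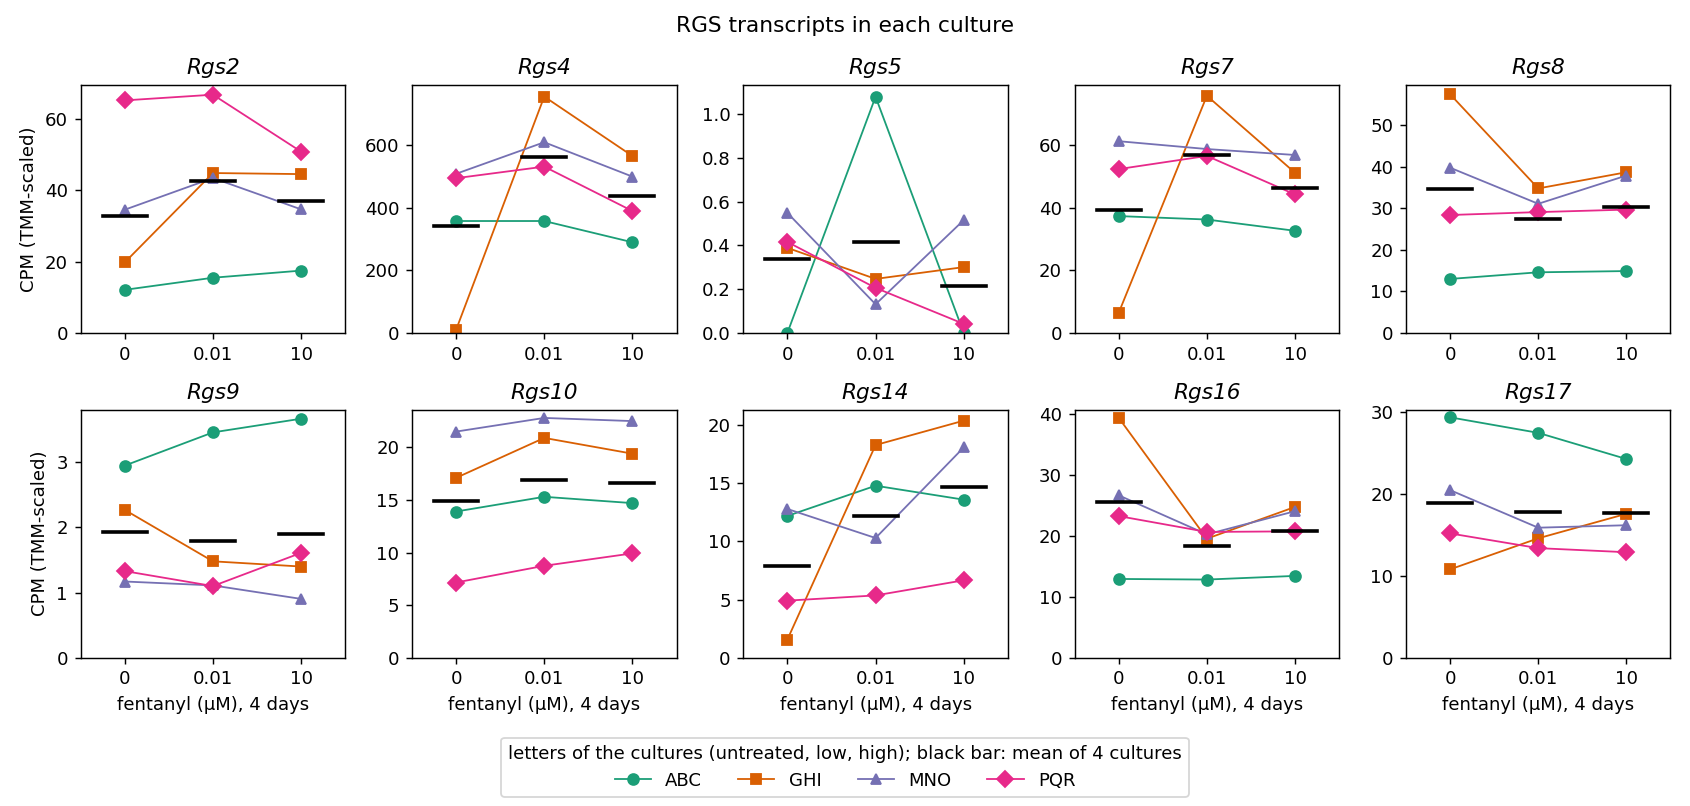
Level of each of the 10 RGS genes in the 12 cultures, as scaled CPM on a linear axis from 0, against the fentanyl dose (μM, evenly spaced categories). Colours and shapes mark the letter sets, lines join cultures of 1 set and black bars are means of 4 cultures. Lines of different sets mostly run apart from each other. Untreated culture G (9.66 CPM of Rgs4) lies far below the rest of its set for Rgs4, Rgs7 and Rgs14. It is also lower than the rest of its set for Rgs2 and higher for Rgs8 and Rgs16.

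Among the R4 genes, Rgs4 encodes a regulator of Gi, Go and Gq signaling that is abundant in cortical neurons. It was at 358, 9.66, 509 and 495 CPM in untreated A, G, M and P. The low dose cultures B, H, N and Q held 358, 756, 610 and 532 CPM, and the high dose cultures C, I, O and R 290, 566, 500 and 390 CPM. Culture G was far below every other culture, and the other 11 overlapped between doses. The untreated mean was 343 ± 232 CPM (SD, n = 4), and 454 ± 83.2 CPM without G (n = 3), against 564 ± 166 CPM at the low dose (n = 4) and 437 ± 121 CPM at the high dose (n = 4). Against untreated, the fitted change at the low dose was 0.95 on the log2 scale (SE 0.55, adjusted p = 1, edgeR), the largest of the 9 genes in size. It was 0.34 with G left out, 0.41 without low dose culture N and 1.51 without untreated culture M. At the high dose it was 0.58 (SE 0.55), and -0.02 with G left out.

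The high dose value of Rgs4 lay below the low dose value in each letter set. The difference of log2(CPM + 1) was -0.30 in ABC, -0.42 in GHI, -0.29 in MNO and -0.45 in PQR. Pooled over the 8 cultures, the log2 fold change of high dose vs. low dose was -0.37 (SE 0.55, adjusted p = 1, edgeR), and the 2 groups overlapped (exact two-sided permutation p = 0.314, where 0.0286 is the smallest p possible). It was 0.05 without low dose culture N and -0.68 without high dose culture O. With 4 factors of unwanted variation in place of 1 it was -0.35 (SE 0.08, adjusted p = 0.0538, edgeR), where 18.9% of all genes had an unadjusted p under 0.05. With the letter sets as a replicate block and G left out it was -0.36 (SE 0.07, adjusted p = 0.0859, edgeR). Of the settings run, these gave the lowest adjusted p. Both values missed that threshold, and their size was under 0.5, so neither could be called. In the same order of sets, the neuron score, the mean log2(CPM + 1) of the neuron markers, differed by 0.03, 0.19, 0.30 and 0.24, and the score of 13 activity-regulated genes by 0.09, 0.04, -0.67 and -0.74. The part of either in the result was not tested.

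Rgs2, which prefers Gq and is induced by many stimuli, ran mainly with the letter sets. Its levels were 12.1, 19.8, 34.6 and 65.3 CPM in untreated A, G, M and P, 15.5, 44.9, 43.5 and 66.9 CPM in low dose B, H, N and Q, and 17.5, 44.6, 34.7 and 50.9 CPM in high dose C, I, O and R. A, B and C were the 3 lowest cultures and P, Q and R the 3 highest, a 5.53-fold range among the 11 cultures other than G. Dose means were 32.9 ± 23.5, 42.7 ± 21.1 and 36.9 ± 14.5 CPM (SD, n = 4). The low dose value was the higher in all 4 sets, by 0.34, 1.14, 0.32 and 0.04 on the log2(CPM + 1) scale, and the pooled log2 fold change was 0.29 (SE 0.56, adjusted p = 1, edgeR). Without untreated culture A, of the lowest letter set, it was -0.07, but the doses then differed in their letter sets. Against untreated at the high dose it was 0.09 (SE 0.56), and between the doses -0.20 (SE 0.54).

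Rgs8 and Rgs16, 2 R4 regulators of Gi, Go and Gq, ran together across cultures. They are next to each other among the protein-coding genes of the RefSeq annotation (assembly GRCr8), with 0 others between them. Rgs8 was at 13, 57.5, 39.8 and 28.4 CPM in untreated A, G, M and P, at 14.6, 34.8, 31.1 and 29.1 CPM in low dose B, H, N and Q, and at 14.9, 38.7, 37.9 and 29.7 CPM in high dose C, I, O and R. Rgs16 was at 12.9, 39.3, 26.6 and 23.2 CPM, at 12.8, 19.5, 20.2 and 20.6 CPM, and at 13.4, 24.7, 24 and 20.7 CPM in the same order. Both were lowest in A, B and C and highest in G, and the doses overlapped. Their log2(CPM + 1) values had a Spearman correlation of 0.86 over the 12 cultures and 0.82 without G, a description over cultures that share letter sets. The library kit does not mark strand and the counting setting for genes that overlap is not given in the sources used here, so reads at the edge of neighbouring genes could not be assigned further.

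Neither gene passed the test in any comparison. Rgs8 had means of 34.7 ± 18.8, 27.4 ± 8.86 and 30.3 ± 11 CPM in untreated, low dose and high dose cultures (SD, n = 4). Its log2 fold changes against untreated were -0.01 (SE 0.38) at the low dose and 0.11 (SE 0.37) at the high dose. The fitted value at the high dose has the sign opposite to that of the means, and without the factor of unwanted variation it was -0.20. In high dose vs. low dose the fitted values were 0.12 for Rgs8 (SE 0.36) and 0.17 for Rgs16 (SE 0.24), both at an adjusted p of 1 (edgeR), and both were higher in all 4 letter sets, by 0.01 to 0.33 on the log2(CPM + 1) scale. Low dose cultures had less Rgs16 than untreated ones in all 4 sets, with differences of -0.01, -0.98, -0.38 and -0.17, where the value of -0.98 is the set with G. In that set the neuron score differed by 4.21 and the fibroblast score, the mean log2(CPM + 1) of the fibroblast markers, by -3.69. The oligodendrocyte score differed by 2.40, the score of activity-regulated genes by 2.37 and the endothelial score by -1.61. The other scores differed by -0.94 to -0.56, and the part of all these scores was not tested. The pooled value of Rgs16 was -0.24 (SE 0.25, adjusted p = 1, edgeR), from means of 25.5 ± 10.9 and 18.2 ± 3.67 CPM (SD, n = 4). It was -0.57 without untreated culture A, -0.12 without untreated culture P and -0.48 without the factor.

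Rgs5, an R4 gene best known as a marker of pericytes, was close to the limit of detection. It had 0, 6, 8 and 5 counts in untreated A, G, M and P, 14, 4, 2 and 3 counts in low dose B, H, N and Q, and 0, 6, 8 and 1 counts in high dose C, I, O and R. The highest level was 1.08 CPM, in B, and a count of 0 allows up to 0.177 CPM in A and 0.178 CPM in C, for counting error only. The pericyte and smooth muscle list summed to 39.9 to 644 CPM, and its 10 markers differed widely in level. Kcnj8 had 1 to 14 counts, Abcc9 4 to 25 and Vtn 2 to 11, while Pdgfrb had 109 to 1108, Anpep 3 to 741, Myh11 164 to 650 and Tagln 163 to 10254.

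Rgs7 is the main R7 gene of cortical neurons and encodes a regulator of Go. It was at 37.3, 6.42, 61.2 and 52.3 CPM in untreated A, G, M and P. Low dose B, H, N and Q had 36.2, 75.7, 58.7 and 56.5 CPM, and high dose C, I, O and R had 32.6, 51.1, 56.8 and 44.2 CPM. As for Rgs4, G was the lowest culture, A, B and C were the next lowest, and the doses overlapped. Means were 39.3 ± 24.1, 56.8 ± 16.2 and 46.2 ± 10.4 CPM (SD, n = 4), and 50.3 ± 12.1 CPM in untreated cultures without G (n = 3). Against untreated, the log2 fold change was 0.50 at the low dose (SE 0.39) and 0.23 at the high dose (SE 0.39), and between the doses it was -0.28 (SE 0.38), with adjusted p = 1 for all 3 (edgeR). With G left out the first was 0.20 and the second -0.08.

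Rgs7 too was lower at the high than at the low dose in each letter set, with differences of -0.14, -0.56, -0.05 and -0.35 on the log2(CPM + 1) scale. The pooled value of -0.28 was -0.10 without low dose culture N and -0.51 without high dose culture O. Rgs4 and Rgs7 were 2 of the 9 RGS genes that were lower in all 4 sets, beside 11.1% of all genes, and Rgs8 and Rgs16 were 2 that were higher in all 4, beside 11.7%. With the replicate block and G left out, the log2 fold change of Rgs7 was -0.28 (SE 0.08, adjusted p = 0.188, edgeR).

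**Figure D2:**
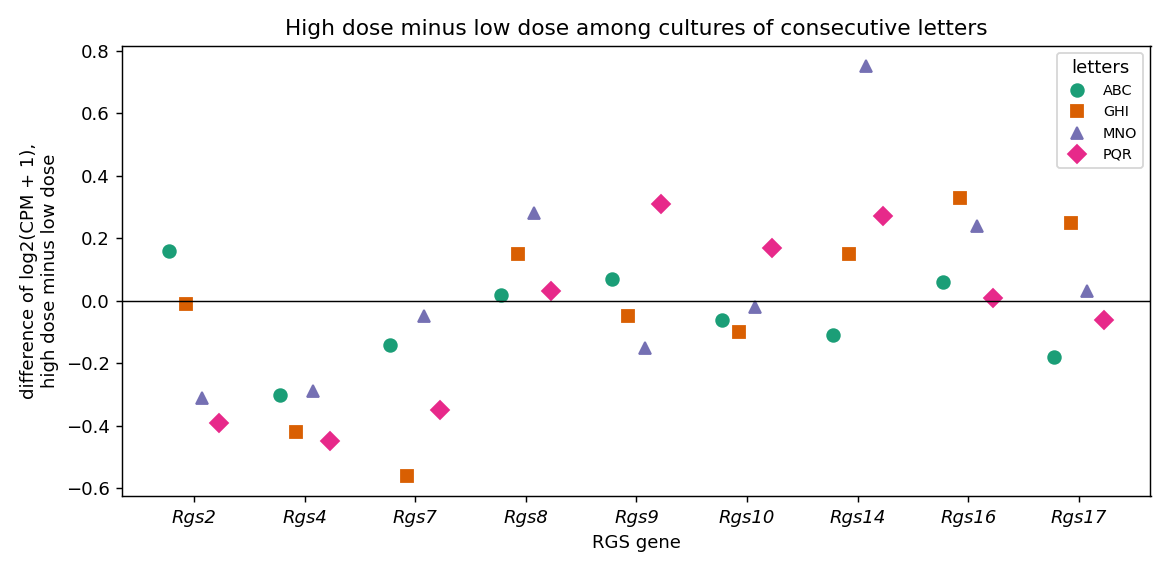
Difference of log2(CPM + 1) between the high and the low dose culture of each letter set, for the 9 RGS genes tested, with 1 point for each of the 4 sets and a line at 0. All 4 points lie below 0 for Rgs4 (-0.29 to -0.45) and Rgs7 and above 0 for Rgs8 and Rgs16, and the other genes lie on both sides.

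Transcripts of the partners of R7 proteins were measured as well. Gnb5, the beta subunit that stabilises R7 proteins, was at 22.6 CPM in G and 37.9 to 48.1 CPM in the other 11 cultures. Rgs7bp, which anchors R7 complexes to the membrane, was at 36.3 ± 6.15 CPM at the low dose and 50.6 ± 6.1 CPM at the high dose (SD, n = 4), and these groups overlapped. The fitted log2 difference was 0.50 (SE 0.29, adjusted p = 1, edgeR), in the direction opposite to that of Rgs7. Gpr158, an orphan receptor that recruits Rgs7, had means of 161 ± 8.72 and 187 ± 21.8 CPM in the same order and a fitted log2 value of 0.23 (SE 0.27, adjusted p = 1, edgeR). These 3 partners were named after their values were seen.

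Rgs9, the other R7 gene, is best known from striatum and retina and was scarce here. It had 16 to 50 counts in untreated, 16 to 45 in low dose and 14 to 62 in high dose cultures. Levels were 2.95, 2.27, 1.17 and 1.33 CPM in untreated A, G, M and P, 3.46, 1.48, 1.11 and 1.1 CPM in low dose B, H, N and Q, and 3.67, 1.4, 0.903 and 1.61 CPM in high dose C, I, O and R. A, B and C were the highest of their doses, and the dose means of 1.93 ± 0.837, 1.79 ± 1.13 and 1.9 ± 1.22 CPM (SD, n = 4) lay within 1 SD of each other. Fitted log2 fold changes were -0.16, -0.07 and 0.09 in the 3 comparisons, with SEs of 0.54 to 0.58.

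Rgs10, an R12 gene for a small Gi regulator that is prominent in microglia, varied almost wholly with the letter sets. It was at 13.9, 17.1, 21.5 and 7.15 CPM in untreated A, G, M and P, at 15.3, 20.9, 22.8 and 8.74 CPM in low dose B, H, N and Q, and at 14.7, 19.4, 22.5 and 9.92 CPM in high dose C, I, O and R. P, Q and R were the 3 lowest cultures, as they were for the microglia markers. The Spearman correlation with the microglia score was 0.90 over the 12 cultures and 0.95 without G. With the astrocyte score it was -0.69 (-0.73 without G), and with the neuron score 0.52 (0.60 without G). Of the variance of Rgs10 on the log2(CPM + 1) scale, 95.3% lay between letter sets and 3.02% between doses.

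Rgs10 was higher than in untreated cultures in all 4 letter sets at the low dose and at the high dose, which are compared with the same 4 untreated cultures. The differences were 0.13, 0.28, 0.08 and 0.26 at the low dose and 0.07, 0.18, 0.06 and 0.42 at the high dose. Beside them, the microglia score differed by 0.43, -0.67, 1.15 and 0.19 at the low dose and by 0.66, -0.23, 0.58 and 0.02 at the high dose, and its part was not tested. Pooled log2 fold changes of Rgs10 were 0.31 (SE 0.37) and 0.27 (SE 0.37), both with an adjusted p of 1 (edgeR), from means of 14.9 ± 6.05, 17 ± 6.35 and 16.6 ± 5.5 CPM in untreated, low dose and high dose cultures (SD, n = 4). Without untreated culture P, of the lowest letter set, they were 0.01 and -0.03, but the doses then differed in their letter sets. With the letter sets as a replicate block in place of the factor they were 0.20 (SE 0.10, adjusted p = 0.86) and 0.20 (SE 0.09, adjusted p = 0.882, edgeR).

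Rgs14, the other R12 gene, encodes a scaffold that binds both active and inactive G alpha subunits and is expressed in neurons. It was at 12.2, 1.56, 12.8 and 4.91 CPM in untreated A, G, M and P. Low dose B, H, N and Q had 14.8, 18.3, 10.3 and 5.36 CPM, and high dose C, I, O and R had 13.6, 20.4, 18.1 and 6.66 CPM. G was the lowest, P, Q and R were the next lowest, and the doses overlapped. Means were 7.86 ± 5.52, 12.2 ± 5.6 and 14.7 ± 6.05 CPM (SD, n = 4), and the untreated mean without G was 9.96 ± 4.38 CPM (n = 3). At the high dose its log2 fold change against untreated was 0.88 (SE 0.54, adjusted p = 1, edgeR), and 0.47 with G left out. At the low dose it was 0.55 (SE 0.54), and 0.23 with G left out. At the high dose Rgs14 was higher than untreated in all 4 letter sets, by 0.15, 3.07, 0.47 and 0.37, where the value of 3.07 is the set with G. Its Spearman correlation with the neuron score was 0.84, and 0.79 without G. Other scores came near that in size, with -0.76 for the astrocyte score (-0.71 without G). Without G it was 0.71 for the endothelial and 0.64 for the microglia score.

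Rgs17, the RZ gene, encodes a regulator with a preference for Gz that has been linked to the mu opioid receptor. It was at 29.4, 10.8, 20.5 and 15.2 CPM in untreated A, G, M and P, at 27.5, 14.6, 15.9 and 13.4 CPM in low dose B, H, N and Q, and at 24.3, 17.6, 16.2 and 12.9 CPM in high dose C, I, O and R. A, B and C were the 3 highest cultures and G was the lowest. Dose means of 19 ± 8.01, 17.9 ± 6.53 and 17.7 ± 4.79 CPM (SD, n = 4) were close, and the log2 fold change was -0.20 (SE 0.30, adjusted p = 1, edgeR) at either dose vs. untreated. Without untreated culture A, of the highest letter set, these values were 0.18 and 0.17, but the doses then differed in their letter sets. With the letter sets as a replicate block in place of the factor they were -0.07 (SE 0.17) and -0.05 (SE 0.17). With the same block and G left out they were -0.26 (SE 0.10, adjusted p = 0.644) and -0.24 (SE 0.10, adjusted p = 0.488, edgeR). In ABC, MNO and PQR it was lower at both doses than in untreated cultures, with differences of -0.09, -0.35 and -0.17 at the low dose and -0.27, -0.32 and -0.23 at the high dose. In GHI it was higher, by 0.40 and 0.65.

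**Figure D3:**
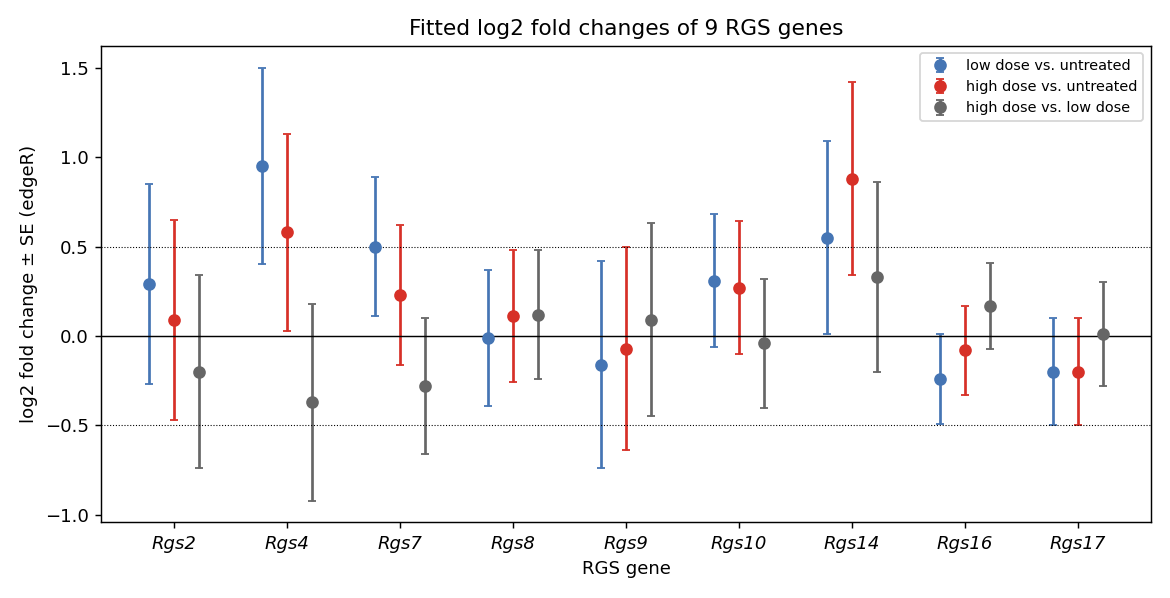
Fitted log2 fold changes of the 9 RGS genes tested, with SE as bars, in the 3 comparisons (edgeR, 12 cultures, 1 factor of unwanted variation). Dotted lines mark the threshold of 0.5 in either direction. The largest value in size is that of Rgs4 in low dose vs. untreated (0.95), and none passed the test.

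As a list, the RGS genes lay on both sides of 0. At the low dose 5 of 9 had a log2 fold change above 0 against untreated, beside 53.4% of all genes, and 4 of 9 below 0, beside 46.6%. The median was 0.29, against 0.01 over all genes tested. At the high dose 6 of 9 were above 0, beside 50.8%, and 3 of 9 below, beside 49.2%, with a median of 0.11 against 0.00. Between high and low dose 5 of 9 were above 0, beside 47.6%, and 4 of 9 below, beside 52.4%, with a median of 0.01 against -0.01. Both comparisons with untreated share the same 4 untreated cultures.

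The groups overlapped for each RGS gene in each comparison. All values of one dose lay above those of the other for 0 of 9, beside 0.196% of all genes for low dose against untreated, 0.359% for high dose against untreated and 0.668% for high against low dose. All lay below for 0 of 9, beside 0.212%, 0.326% and 0.522%. Without G the count was still 0 of 9 in both comparisons with untreated, beside 0.627% higher and 0.75% lower at the low dose and 1.17% and 0.839% at the high dose. The exact two-sided permutation p of single RGS genes ran from 0.171 to 0.857 and from 0.171 to 0.943 for the low and the high dose against untreated and from 0.314 to 1 between the doses, and the p adjusted over all genes was 1 for each.

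Within the letter sets a few genes ran in 1 direction. At the low dose Rgs2 and Rgs10 were higher than untreated in all 4 sets (2 of 9, beside 4.06% of all genes) and Rgs16 was lower (1 of 9, beside 5.28%). At the high dose Rgs10 and Rgs14 were higher in all 4 (2 of 9, beside 5.22%) and 0 of 9 were lower, also beside 5.22%. In the 3 sets other than GHI, the high dose was lower than untreated for Rgs4, Rgs7 and Rgs17 (3 of 9, beside 14.5%). For Rgs4 the values there were -0.30, -0.02 and -0.34, and 5.73 in GHI. In the same 3 sets, 2 of 9 were higher than untreated at the high dose, beside 15.1%. At the low dose 2 of 9 were higher and 2 of 9 lower, beside 13.9% and 13.7%. Between high and low dose it was 2 of 9 higher and 2 of 9 lower, beside 16.5% and 15.6%.

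The letter set held more of the variance than the dose did for most RGS genes. On the log2(CPM + 1) scale over 12 cultures it held 73.7% to 95.3% for Rgs2, Rgs8, Rgs9, Rgs10, Rgs16 and Rgs17, and 17.8% for Rgs4, 20.9% for Rgs7 and 28.8% for Rgs14, the 3 genes most reduced in G. The median over all genes was 55.7%. Over the 9 cultures of the sets without G, it held 77.2% for Rgs4 and 86.5% to 96.9% for the other 8, beside a median of 76.1%. The dose held 19% for Rgs4 in these 9 cultures and 0.54% to 8.24% for the other 8, beside a median of 6.88%.

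In culture G, 4 of the 9 RGS genes tested lay below all other cultures, beside 28.4% of all genes, and 2 lay above them, beside 27.7%. All 12 neuron markers were below the other cultures there. Above them were 4 of 7 fibroblast, 3 of 6 endothelial and 5 of 10 pericyte and smooth muscle markers. In each of these lists 1 marker was instead below them (Mgp, Tek and Tagln), and the rest lay within their range. Of the other lists, 4 of 10 astrocyte, 2 of 6 OPC and 2 of 10 microglia markers were above the other cultures. Below them were 6 of 13 activity-regulated, 2 of 8 oligodendrocyte and 1 of 10 astrocyte markers. The pericyte and smooth muscle score of G was 2.73, within the 1.61 to 2.86 of the others. The fibroblast score was 7.78 in G and 3.69 to 6.51 in the others, with Dcn at 68.3 CPM against at most 2.27 CPM. By summed level, however, the fibroblast markers were higher in low dose culture N (3420 CPM) than in G (2230 CPM). Col1a1 and Col1a2 were at 502 and 691 CPM in G and at up to 1270 and 1360 CPM in the others. The endothelial score was 2.42 in G against 0.49 to 1.41, with Cdh5 at 28.5 CPM against at most 0.474 CPM. The part of these cell types or of the activity-regulated genes in the RGS values of G was not tested. The median of the other 11 cultures was 51.8-fold above G for Rgs4 (149 counts in G, 4651 to 12241 in the others), 8.15-fold for Rgs7, 8.19-fold for Rgs14, 2.2-fold for Rgs2 and 1.5-fold for Rgs17. Rgs8 and Rgs16 were instead highest in G, at 1.94 and 1.91 times the median of the others. Rgs9 and Rgs10 in G lay within the range of the others, at 1.62 and 1.11 times the median, as did Rgs2.

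Of the 22 other genes of the pathway that were tested, 9 were below all other cultures in G, 6 were above and 7 lay within their range. Beside them, 28.4% of all genes were below, 27.7% above and 43.9% within that range. Of the partners of Rgs7, Rgs7bp was 9.22-fold, Gpr158 8.31-fold and Gnb5 1.9-fold lower in G, and Rgs6, a further R7 gene, was 9.01-fold lower. Rgs1, an R4 gene of immune cells, was 5.22 times the median of the others, Rgs3 1.84 times and Rgs20 1.39 times. Among the G alpha subunits, Gna14 was 6.76-fold, the Go gene Gnao1 3.2-fold, Gnai1 3.09-fold, the Gz gene Gnaz 2.9-fold and Gnal 2.07-fold lower in G, and Gna13 was at 1.87, Gnai2 at 1.49 and Gnai3 at 1.4 times the median. Rgs12, Rgs18, Rgs19, Gnaq, Gna11, Gna12 and Gnas lay within the range of the other cultures. Apart from Gna14 and Rgs19, these genes were named after their values were seen, and the cause of the state of G was not tested.

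**Figure D4:**
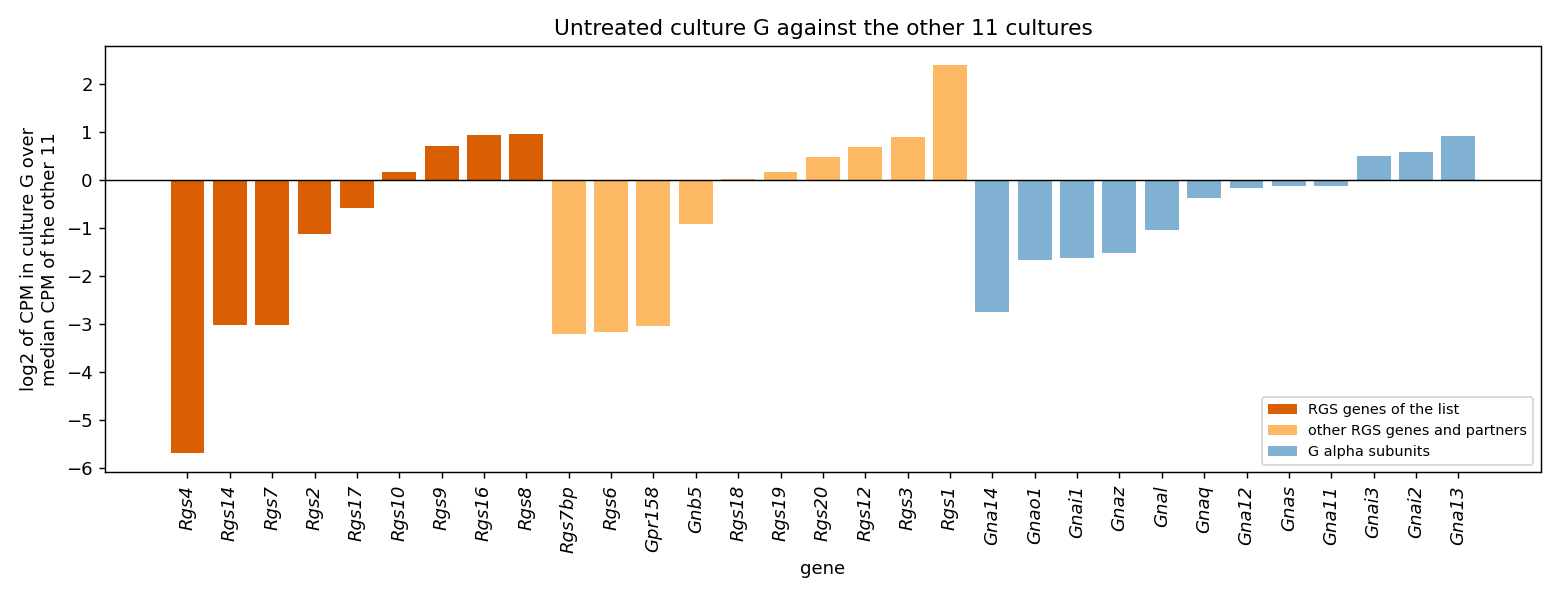
Level in untreated culture G relative to the median of the other 11 cultures, as log2 of the ratio of CPM, for the 9 tested RGS genes (dark orange), other RGS and partner genes (light orange) and G alpha subunits (blue). Bars start at 0, and the 1 culture gives no error. Rgs4 is the lowest, with the median of the others 51.8-fold above G, and Rgs8 and Rgs16 lie above 0.

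Other members, partners and substrates of the family showed no call either. Of 16 other RGS and partner genes, 12 are listed and 10 were tested, with 0 called in each comparison and 0 at an unadjusted p under 0.05 (edgeR), as by DESeq2 with 0 called. Their median log2 fold change was 0.15 at the low dose and 0.33 at the high dose against untreated and 0.04 between the doses, beside 0.01, 0.00 and -0.01 over all genes. Of 12 G alpha genes all 12 were tested, again with 0 called and 0 at an unadjusted p under 0.05, and medians of 0.00, 0.04 and 0.04. The smallest p of the lists belonged to Rgs19, an RZ gene, in both comparisons with untreated, and to Gna14, a G alpha of the Gq class, in high dose vs. low dose.

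Rgs19 had an untreated mean of 13 ± 1.85 CPM, a low dose mean of 15.7 ± 4.13 CPM and a high dose mean of 15.1 ± 1.29 CPM (SD, n = 4), and the groups overlapped. The log2 change against untreated was 0.35 (SE 0.16, adjusted p = 1, edgeR) at the low and 0.30 (SE 0.16) at the high dose. Gna14 was at 10.5, 8.77, 7.51 and 17.9 CPM in low dose B, H, N and Q and at 10.5, 5.67, 4.84 and 8.68 CPM in high dose C, I, O and R. It was lower in 3 letter sets, with differences of 0.00, -0.55, -0.54 and -0.96, and the log2 fold change was -0.56 (SE 0.26, adjusted p = 1, edgeR).

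The genes most like each RGS gene were found by Spearman correlation of log2(CPM + 1) over the 12 cultures, as a description of cultures that share letter sets and cell makeup. For Rgs4 they were Srd5a1 (0.97), Arc (0.97) and Lpcat4 (0.95). Arc, an immediate early gene of synaptic activity, was at 170 CPM in H and 150 CPM in I, at 1.65, 3.54 and 2.13 CPM in A, B and C and at 1.1 CPM in G, so that its range was far wider than that of Rgs4. The Spearman correlation of Rgs4 with the score of the 13 activity-regulated genes, a list that holds Arc, was 0.94, and 0.93 without G. With the oligodendrocyte score it was 0.74 (0.72 without G), and with the neuron score 0.33 (0.13 without G).

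For Rgs10 the closest were Cfd (0.97), C5ar2 (0.96) and C3ar1 (0.96), of which the last is a complement receptor of microglia. Rgs7 was closest to Golga7b (0.98), Yars (0.98) and Fmnl1 (0.97). Rgs14 was closest to Gtdc1 (0.99), Ssx2ip (0.98) and LOC690918 (0.98), and Rgs17 to Smarca5 (0.99), Golph3l (0.98) and Atg12 (0.98).

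For Rgs2 they were Mcrs1, Kazn and Scrg1 (each 0.97), for Rgs8 Wls (0.97), Tssc4 and Sds (both 0.95), for Rgs16 Cfap52 (0.97), Nr3c1 (0.97) and Il1rap (0.95), and for Rgs9 Rnf152 (0.91), Capn5 and Styxl1 (both 0.90). With G left out, 0 of the 3 stayed among the closest 3 for Rgs2, Rgs8 and Rgs16, 1 for Rgs9, and 2 for Rgs4, Rgs7, Rgs10, Rgs14 and Rgs17.

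Between RGS genes, Rgs4 and Rgs7 had a Spearman correlation of 0.89 over 12 cultures and 0.85 without G, and Rgs2 and Rgs17 one of -0.69 and -0.93. Rgs17 ran against the OPC score (-0.82, and -0.77 without G), whose summed markers were 267 to 343 CPM in A, B and C and 930 to 1290 CPM in G, H and I. The plot of 3 such pairs shows that the points group by letter set.

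**Figure D5:**
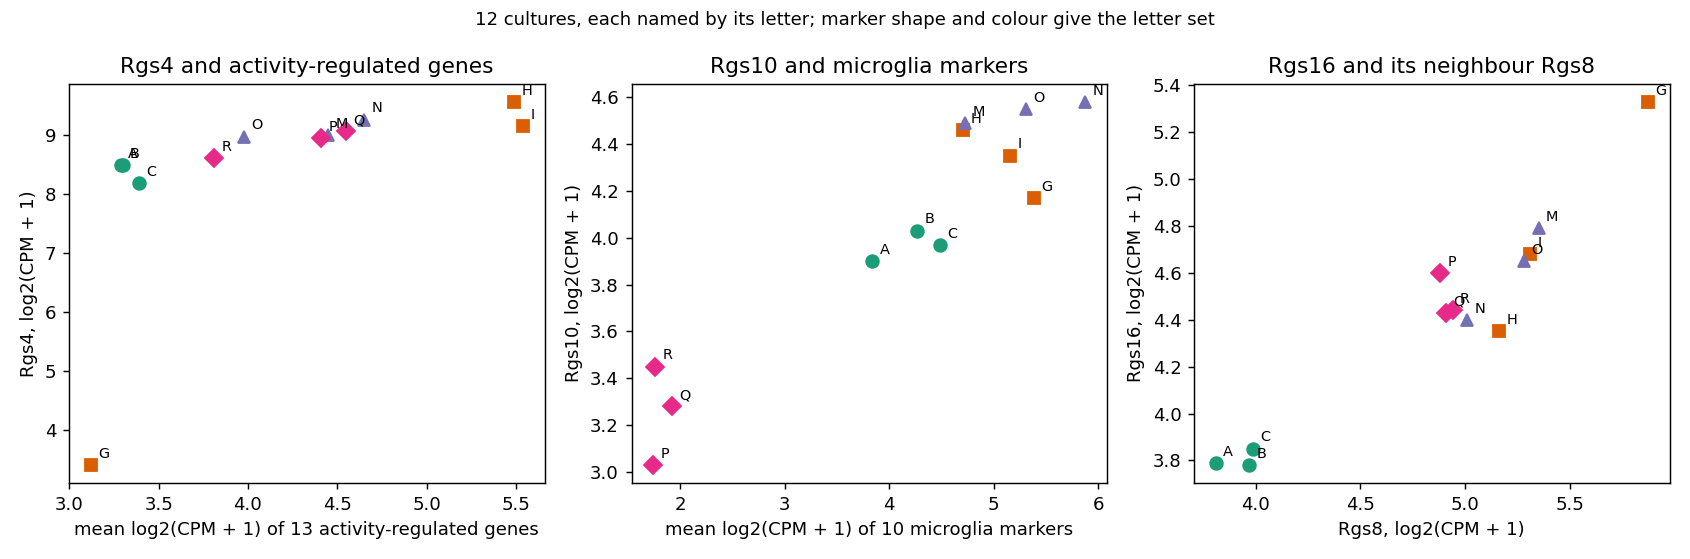
Each point is 1 of the 12 cultures, named by its letter, with colour and shape for the letter set; axes are log2(CPM + 1), or its mean over a marker list. Rgs4 rises with the activity-regulated genes (Spearman 0.94), Rgs10 with the microglia markers (0.90) and Rgs16 with its neighbour Rgs8 (0.86), and most cultures of 1 letter set lie near each other, apart from G.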

How the data were processed

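Per the labels and the study's methods, the authors made TruSeq v2 poly(A) libraries, aligned the reads to rat build rn6 with STAR and used featureCounts for counting, and the deposited values are raw counts without normalization. The strand setting of the counting is not given in the sources used here. Samples were grouped by the dose in their labels. The RGS genes and all other lists were chosen with earlier results of these data known.

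From the counts, TMM scaling, filterByExpr (minimum count 10) and edgeR's quasi-likelihood test (glmQLFit, glmQLFTest) were run in R 4.3.3 with edgeR 4.0.16 and limma 3.58.1 on all 12 cultures, with 1 factor of unwanted variation (RUVs procedure, written anew in R, since the methods name RUVseq without procedure or number of factors). The factor held 41.0% of the variation within doses, with a value of 2.96 for culture G and -0.70 to 0.49 for the others. P-values were adjusted by Benjamini-Hochberg over all 12271 genes. The call thresholds were 0.05 for the adjusted p and 0.5 for the size of the log2 fold change. SEs came from the quasi-likelihood statistics. Levels are TMM-scaled CPM with a pseudocount of 1 on the log2 scale, and exact permutation tests ran over 70 arrangements of 4 against 4 cultures (35 without G). Alternatives were other numbers of factors, a block by letter sets, DESeq2 1.42.0, its size factors, other filters, fewer cultures and a pseudocount of 0.1. The model was also run on simulated counts, drawn without letter sets and without a culture like G. That run therefore cannot tell how the model does with the spread seen here.

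Named were all 10 RGS genes, the gene with the smallest p per comparison among the other pathway genes, and the 3 genes most like each RGS gene. The partners of Rgs7, the other pathway genes given for culture G and the single markers were named outside this rule, after their values were seen. Neighbouring genes came from RefSeq (GRCr8), in which 10 of 10 symbols matched, and no coordinates are given since the counts use rn6. Marker lists other than those printed gave summed levels of 3.23 to 58.2 CPM (endothelial), 460 to 3420 CPM (fibroblast), 2220 to 11900 CPM (astrocyte) and 3000 to 25900 CPM (oligodendrocyte). Levels were not compared between genes, since transcript lengths were not used here. At this depth a count of 0 allows 3 counts, which is 0.124 to 0.249 CPM.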

Additional observations from a re-analysis of the deposited data

Results flagged for a closer look

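In 2 of 27 groups of 4 cultures, 1 culture lay far from the other 3 beside the range of the group. This was Dixon's test at its 95% critical value on log2(CPM + 1), and chance gives this in about 1 in 20 groups. The gap shares below are on that log2 scale and not on the CPM printed beside them. Rgs4 was at 9.66 CPM in untreated culture G and at 358 to 509 CPM in the other untreated cultures, a gap of 0.91 of the range. G also had the lowest neuron markers and lay below all other cultures for 28.4% of all genes. The share of such outliers over all genes is not given here. Rgs16 was at 12.8 CPM in low dose culture B and at 19.5 to 20.6 CPM in the other low dose cultures, a gap of 0.882 of the range. The untreated and high dose cultures of the same letter set, A and C, had 12.9 and 13.4 CPM.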

How the results depend on the processing

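Of the 9 RGS genes tested, 0 were called in any comparison under any alternative or with any 1 culture left out. The direction of 26 of 297 single log2 fold changes reversed under other settings with the cultures kept or G left out with a second choice, and that of 44 of 324 with 1 culture left out. The cause was not tested. With 2 RUVs factors the values were 0.08 for Rgs8 in low dose vs. untreated, 0.01 for Rgs16 in high dose vs. untreated and -0.01 for Rgs17 in high dose vs. low dose. With 4 factors they were 0.11 for Rgs9 at the low dose, -0.11 for Rgs7, -0.03 for Rgs8, 0.20 for Rgs9 and -0.04 for Rgs10 at the high dose, both against untreated, and -0.0028 for Rgs17 between doses. With no factor Rgs8 was at -0.20 in high dose vs. untreated and Rgs17 at -0.01 between doses. With at least 10 counts in every culture Rgs8 was at 0.05 at the low dose, Rgs16 at 0.01 at the high dose and Rgs17 at -0.01 between doses. With the 8 cultures compared alone Rgs17 was at -0.04 between doses. With no factor and G left out, Rgs8 was at 0.02 at the low dose, Rgs2 at -0.01, Rgs4 at -0.06, Rgs7 at -0.12 and Rgs9 at 0.06 at the high dose, and Rgs17 at -0.01 between doses.

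The letters of the cultures are not stated to pair them. With the letter sets as a replicate block in place of the factor, Rgs8 was at -0.11 in high dose vs. untreated, and with the same block and G left out Rgs9 was at 0.03 at the low dose, and Rgs4 at -0.23, Rgs7 at -0.23 and Rgs9 at 0.12 at the high dose. The replicate block changed no call of an RGS gene. Over all genes, high dose vs. untreated gave 1 call with 2 factors, 39 with 4 factors, 3 with DESeq2, 2 with the likelihood ratio test and 15 with the block and G left out, and high dose vs. low dose gave 1, 113, 1, 0 and 14. An unadjusted p under 0.05 was reached by at most 4 of the 9 RGS genes, in low dose vs. untreated with 4 factors (Rgs2, Rgs4, Rgs16 and Rgs17), where 9.85% of all genes reached it.

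Leaving out 1 culture takes its letter set out of 1 dose only, so the doses then differ in their letter sets. With 1 culture left out in turn, these values changed direction, each given as its range with the cultures whose absence reversed it in parentheses. At the low dose against untreated they were -0.07 to 1.07 for Rgs2 (A), -0.43 to 0.18 for Rgs8 (B, G, M, N, P or R), -0.63 to 0.36 for Rgs9 (A or N) and -0.43 to 0.18 for Rgs17 (A). At the high dose against untreated they were -0.25 to 0.87 for Rgs2 (A, I or R), -0.02 to 1.16 for Rgs4 (G), -0.08 to 0.62 for Rgs7 (G or O), -0.30 to 0.30 for Rgs8 (A or I), -0.56 to 0.44 for Rgs9 (A, I or O), -0.03 to 0.58 for Rgs10 (P), -0.40 to 0.06 for Rgs16 (C, G, M or P) and -0.41 to 0.17 for Rgs17 (A). Between the doses they were -0.48 to 0.07 for Rgs2 (C or Q), -0.68 to 0.05 for Rgs4 (N), -0.08 to 0.34 for Rgs8 (B or I), -0.44 to 0.62 for Rgs9 (C, N or Q), -0.24 to 0.14 for Rgs10 (C, H, N or R) and -0.17 to 0.27 for Rgs17 (A, C, G, H or Q). The other 9 values kept their direction, with ranges at the low dose of 0.34 to 1.51 for Rgs4, 0.20 to 0.89 for Rgs7, 0.01 to 0.61 for Rgs10, 0.23 to 0.96 for Rgs14 and -0.57 to -0.12 for Rgs16, at the high dose of 0.47 to 1.29 for Rgs14, and between the doses of -0.51 to -0.10 for Rgs7, 0.07 to 0.60 for Rgs14 and 0.04 to 0.32 for Rgs16. A pseudocount of 0.1, DESeq2 size factors and leaving out G, the last chosen after the data were seen, gave 0 of 9 RGS genes without overlap between groups in the comparisons they were run for. The order of the levels of the RGS genes was not run, since transcript lengths were not used here. Depth limits Rgs5 (0 to 14 counts) and Rgs9 (14 to 62 counts).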
